A study of Mus musculus with 78 samples.

Results

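The MYC family and the MAX network were followed as 10 genes of the 54446 in the RNA tables: Mycn, Myc and Mycl, their common partner Max, and the MAX-binding antagonists Mxd1, Mxd3, Mxd4, Mxi1, Mnt and Mga. The genes were taken by symbol, and all 10 were found in every table of messenger RNA and in the table of nascent RNA. The series asked what follows when TRIM28, a corepressor that keeps endogenous retroviruses silent, is removed from mouse embryonic stem cells (mESCs). V6.5 mESCs, a hybrid strain line, carried an FKBP degron tag on TRIM28 and were given 500 nM of the degrader dTAG-13 or its vehicle DMSO. The tagged line was grown in serum and LIF, was derived from a single colony and was depleted of feeder fibroblasts before collection. RNA-seq of this line covered DMSO and dTAG-13 given for 2 h, 6 h, 24 h or 96 h. TT-SLAM-seq, in which RNA made during a 15 min pulse of 4-thiouridine is enriched and sequenced, covered the same times except 96 h. Both had a single DMSO group, labelled as the start of the course, and none labelled with a later time. In every comparison of these times with DMSO, dTAG-13 and time in culture therefore cannot be told apart. A derivative of the tagged line, named shREPEATS in the labels, carried hairpin RNAs against several families of endogenous retroviruses, switched on by doxycycline (Dox, 2 µg/ml). It was sequenced as total RNA in DMSO, with dTAG-13 and with dTAG-13 and Dox, with DMSO or dTAG-13 given for 24 h. The treatment text of all 3 of these groups mentions Dox before dTAG-13 whereas the titles name it in 1, and the titles were followed. In the paper's total RNA-seq experiment the hairpins were expressed for 24 h ahead of 24 h of degradation. Dox added is therefore read below as Dox begun before dTAG-13. Untreated parental V6.5 mESCs without the tag, whose labels mention growth on feeder fibroblasts, and neural progenitor cells (NPCs) in DMSO completed the RNA-seq. Each RNA group held 3 libraries. ChIP-seq peaks came from DMSO and 24 h of dTAG-13, with 3 libraries per group for H3K27Ac and H3K9me3 and 2 per group for RNA polymerase II and the Mediator subunit MED23. Where the labels do not say that libraries came from separate cultures, p-values measure only the spread between these libraries.

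MYC, MYCN and MYCL are transcription factors that bind DNA only as dimers with MAX, at the E-box CACGTG and its variants, and raise genes for ribosome production, nucleotide synthesis and growth. MXD1, MXI1, MXD3, MXD4 and MNT compete for MAX and bring the SIN3 corepressor to the same sites, and MGA brings MAX into a Polycomb complex that holds germline genes down in mESCs. MYC and MYCN are known in mESCs for sustaining proliferation and self-renewal, and MYC proteins and messages turn over quickly.

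The promoter windows below show where the E-box read by the network lies in the promoters of its own members, and the E2F motifs of Mycn. Each holds 250 bases before and 50 after the annotated start, from RefSeq on GRCm38.p6, written 5′ to 3′ on the strand of the gene, with the motifs in capitals.
Mycn, minus strand, chr12:12941787-12942086: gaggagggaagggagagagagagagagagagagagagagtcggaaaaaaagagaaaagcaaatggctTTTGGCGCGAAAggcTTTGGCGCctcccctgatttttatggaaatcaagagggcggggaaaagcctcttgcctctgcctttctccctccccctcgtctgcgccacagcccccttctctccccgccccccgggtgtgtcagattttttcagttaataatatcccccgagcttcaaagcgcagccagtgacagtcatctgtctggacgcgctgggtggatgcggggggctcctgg
Max, minus strand, chr12:76962199-76962498: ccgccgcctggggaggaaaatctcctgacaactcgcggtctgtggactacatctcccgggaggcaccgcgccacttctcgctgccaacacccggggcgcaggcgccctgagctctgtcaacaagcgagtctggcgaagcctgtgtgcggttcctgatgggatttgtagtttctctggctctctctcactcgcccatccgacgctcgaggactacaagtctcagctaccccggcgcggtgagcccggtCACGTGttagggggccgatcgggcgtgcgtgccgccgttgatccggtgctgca
Mxd4, minus strand, chr5:34187661-34187960: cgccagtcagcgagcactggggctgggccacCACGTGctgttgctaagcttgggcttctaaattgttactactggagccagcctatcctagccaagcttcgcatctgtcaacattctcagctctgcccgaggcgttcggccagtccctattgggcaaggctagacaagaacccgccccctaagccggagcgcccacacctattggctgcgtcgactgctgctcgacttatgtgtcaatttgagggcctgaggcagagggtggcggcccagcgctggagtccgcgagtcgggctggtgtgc
Mnt, plus strand, chr11:74830674-74830973: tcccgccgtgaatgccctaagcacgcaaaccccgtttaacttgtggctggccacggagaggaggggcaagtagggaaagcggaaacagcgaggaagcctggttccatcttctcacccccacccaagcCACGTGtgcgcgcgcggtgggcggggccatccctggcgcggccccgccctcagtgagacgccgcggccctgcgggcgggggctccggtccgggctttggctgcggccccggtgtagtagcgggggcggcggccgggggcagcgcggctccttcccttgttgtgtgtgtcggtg

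RefSeq gave 11 windows for 9 of the 10 members, and Myc had none. CACGTG, which reads the same on both strands, was in 3 of the 11 windows, beginning at -3 from the start in Max, at -219 in Mxd4 and at -123 in Mnt, against 7.15% of all 32851 promoter windows. The E2F motif TTTGGCGC began at -183 and -168 of Mycn, and TTTCGCGC, on the other strand, began at -179 and overlapped the first of them. In all windows and on both strands TTTGGCGC was in 0.514%, TTTCGCGC in 0.323% and TTTCCCGC, which no member window held, in 1.07%. These are matches of letters and not measured binding sites.

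Messenger RNA levels are given as TPM (abundance scaled to transcript length and library depth) and nascent RNA as FPKM (reads scaled to depth and to length, here that of the whole gene). Differences are on the scale of log2(value + 0.5), with standard errors, from limma's moderated test, and adjusted p is the Benjamini-Hochberg value over all genes tested. Relative depth ran from 0.332 to 1.66 over the 30 RNA-seq libraries, with the lowest in replicate 1 of the 24 h group, and nascent libraries held 6481999 to 24266191 reads. Trim28, whose protein the degrader removes, was listed at 622 to 626 TPM in DMSO, 365 to 382 TPM at 24 h and 185 to 204 TPM at 96 h, so its message gives no measure of the degradation. Summed markers of mESCs (7 of 7 at 1 TPM or more) lay at 1786 to 1855 TPM in DMSO, 1007 to 1097 TPM at 24 h and 200.3 to 226 TPM at 96 h. Over the same groups feeder fibroblast markers went from 20.8 to 21.5 TPM (4 of 7 at 1 TPM or more, Lum at 0 in all libraries), through 27.5 to 29.3 TPM (4 of 7), to 269.9 to 290.03 TPM (6 of 7), and endoderm markers from 15 to 19.3 TPM (4 of 6), through 25.9 to 27.1 TPM (4 of 6), to 78.5 to 83.4 TPM (5 of 6). The sums hide markers that went the other way at 24 h. Within the mESC sum Nanog rose from 132 to 142 TPM in DMSO to 191 to 208 TPM at 24 h. Within the endoderm sum Dab2 rose from 8.81 to 10.9 TPM to 18.5 to 19.2 TPM. Sox7 fell from 0.973 to 1.22 TPM to 0.272 to 0.499 TPM, and was at 0.564 to 0.748 TPM at 96 h. Gata6 fell from 1.10 to 1.63 TPM to 0.963 to 1.07 TPM at 24 h. Foxa2 went from 0.483 to 0.865 TPM to 0.274 to 0.485 TPM, with overlap. Gata4 and Sox17 had higher medians at 24 h, also with overlap. Within the feeder fibroblast sum Dcn fell from 0.449 to 0.701 TPM in DMSO to 0 to 0.246 TPM at 24 h. These shifts accompany every 24 h and 96 h value below, and their part in those values was not tested. In bulk RNA, fewer cells of a type and less RNA per cell cannot be told apart.

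Over the time course the MYC genes that dominate in DMSO fell, and the antagonists split. Mycn and Myc had lost most of their RNA by 24 h, Mycl rose modestly, Max stayed near its DMSO level in the deposited scaling, Mxd4 climbed steeply to 96 h, and Mxd3, Mxi1, Mnt and Mga stood below DMSO at 96 h. At 2 h, 6 of the 10 members passed the adjusted p of 0.05, 4 up and 2 down, when 15.3% of 17922 tested genes did so (8.25% up, 7.02% down). At 6 h 4 passed, 2 up and 2 down, against 33.9% of genes (18.4% up, 15.5% down). At 24 h 8 passed, 4 up and 4 down, against 67.9% (42.9% up, 25% down). At 96 h 9 passed, 3 up and 6 down, against 80.3% (42.9% up, 37.4% down). From 24 h on the share of members that passed is near that of all genes, so the counts alone set the network apart in nothing, and the sizes carry the description. The median log2 change was 0.04 over the members and 0.13 over all genes at 24 h, and -0.74 over the members and 0.05 over all genes at 96 h.

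**Figure D1:**
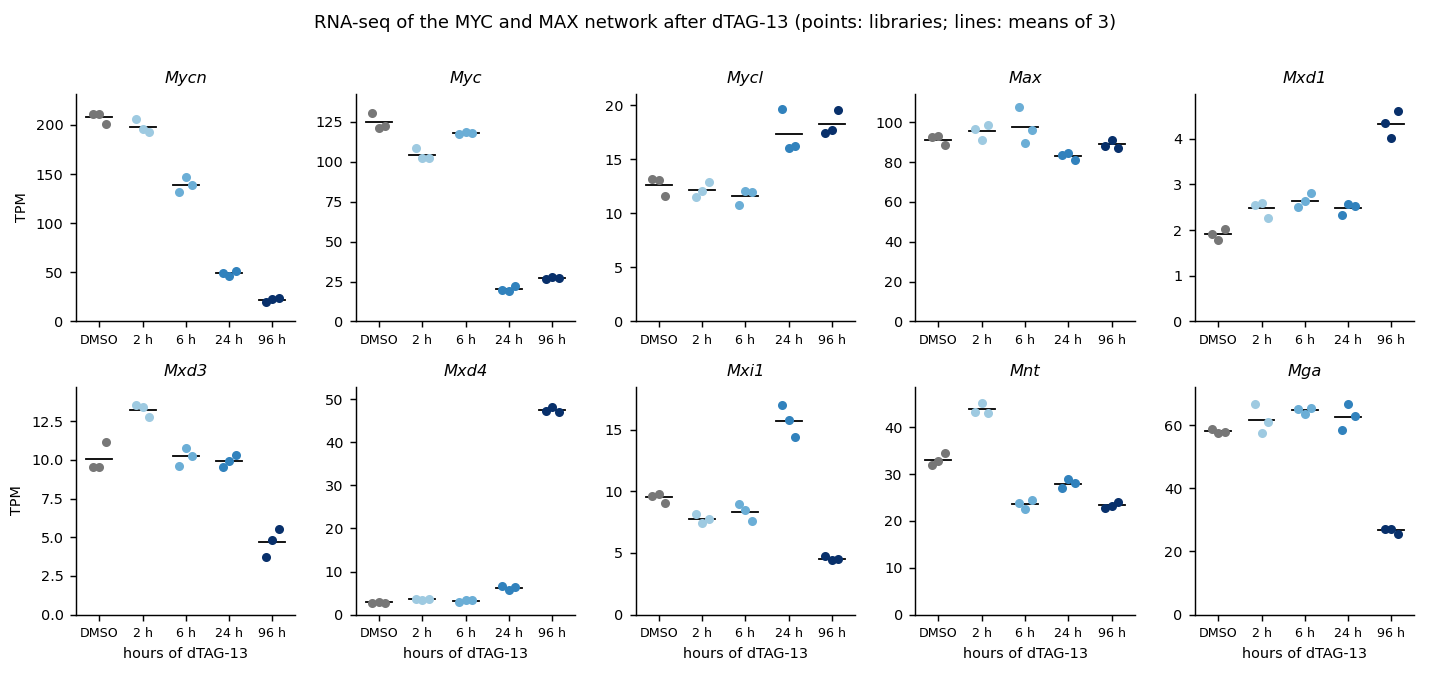
TPM of each of the 10 genes in RNA-seq of the tagged line (y axis, own linear scale from 0 per gene) against hours of dTAG-13 (x axis, DMSO first), with points for the 3 libraries of a group and lines for their means. Mycn descends from 201 to 211 TPM in DMSO to 20.1 to 23.9 TPM at 96 h, and Mxd4 climbs from 2.73 to 2.91 TPM to 47 to 48.2 TPM.

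Mycn (chr12:12936093-12941914, minus strand), the main MYC gene of these cells by level, was measured at 211, 211 and 201 TPM in DMSO. It stood at 206, 196 and 192 TPM after 2 h, at 132, 147 and 139 TPM after 6 h, at 49.4, 46.5 and 51.8 TPM after 24 h and at 20.1, 22.8 and 23.9 TPM after 96 h. The 2 h libraries overlapped DMSO, and the groups from 6 h on overlapped neither DMSO nor each other. The log2 change was -0.07 ± 0.061 (SE, n = 3 against 3, adjusted p = 0.505) at 2 h, and at 6 h Mycn was 1.49-fold lower (-0.58 ± 0.061, adjusted p = 2.25e-05). It was 4.19-fold lower at 24 h (-2.07 ± 0.061, adjusted p = 1.22e-11) and 9.17-fold lower at 96 h (-3.20 ± 0.061, adjusted p = 6.89e-15). The fall from 24 h to 96 h was itself 2.19-fold (adjusted p = 4.06e-10), in a comparison that 8 of the 10 members passed, 3 up and 5 down, against 79.4% of genes (37.4% up, 42% down).

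Myc (chr15:61985391-61990374, plus strand), the broadly expressed family member, did not descend in steps. Its values were 130.3, 121 and 123 TPM in DMSO, 108, 102 and 102 TPM at 2 h, 118, 119 and 118 TPM at 6 h, 19.5, 18.8 and 22.3 TPM at 24 h and 26.7, 27.6 and 27.3 TPM at 96 h. Every treated group lay below DMSO without overlap, with a dip at 2 h, a level near DMSO at 6 h and the lowest level at 24 h. Myc was 1.19-fold lower at 2 h (adjusted p = 0.00532), and its 6 h difference of -0.08 ± 0.053 did not pass (adjusted p = 0.272). With libraries centred on their median gene the 6 h difference was -0.17 and passed (adjusted p = 0.0177). Myc was 6.06-fold lower at 24 h (-2.60 ± 0.053, adjusted p = 1.77e-12). At 96 h it was 4.51-fold lower than in DMSO (-2.17 ± 0.053) and 1.34-fold higher than at 24 h (adjusted p = 3.44e-06). Between 24 h and 96 h Mycn thus fell further while Myc rose, each past the test.

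Mycl (chr4:122995652-123002485, plus strand), the least abundant of the 3, went the other way. It was at 13.2, 13.1 and 11.6 TPM in DMSO, between 10.8 and 12.8 TPM in the 6 libraries of 2 h and 6 h, at 19.6, 16 and 16.2 TPM at 24 h and at 17.4, 17.7 and 19.5 TPM at 96 h. The early groups overlapped DMSO and the late groups lay above it. Mycl was 1.35-fold higher at 24 h (0.43 ± 0.084, adjusted p = 0.000364) and 1.43-fold higher at 96 h (0.51 ± 0.084, adjusted p = 5.37e-05). With libraries centred on their median gene the 24 h rise was 0.14 (adjusted p = 0.147) and no longer passed.

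Since TPM are per length, the MYC genes can be summed within a library. The sum was 345 ± 9.85 TPM (SD, n = 3) in DMSO, 315 ± 10.2 TPM at 2 h, 269 ± 9.05 TPM at 6 h, 86.7 ± 4.76 TPM at 24 h and 67.7 ± 3.27 TPM at 96 h. Mycn held 60.2% ± 0.823 of it in DMSO and 32.8% ± 1.32 at 96 h, Myc 36.1% ± 0.915 and 40.3% ± 1.49, and Mycl 3.66% ± 0.175 and 26.9% ± 0.826. The 6 antagonists together stood at 115 ± 1.58 TPM in DMSO, 125 ± 4.47 TPM at 24 h and 111 ± 1 TPM at 96 h. The ratio of MYC genes to antagonists was 2.99 ± 0.121 in DMSO, 0.695 ± 0.059 at 24 h and 0.610 ± 0.025 at 96 h, and its 24 h and 96 h libraries overlapped in no case with DMSO. Sums of RNA say nothing of protein, which was not measured here.

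**Figure D2:**
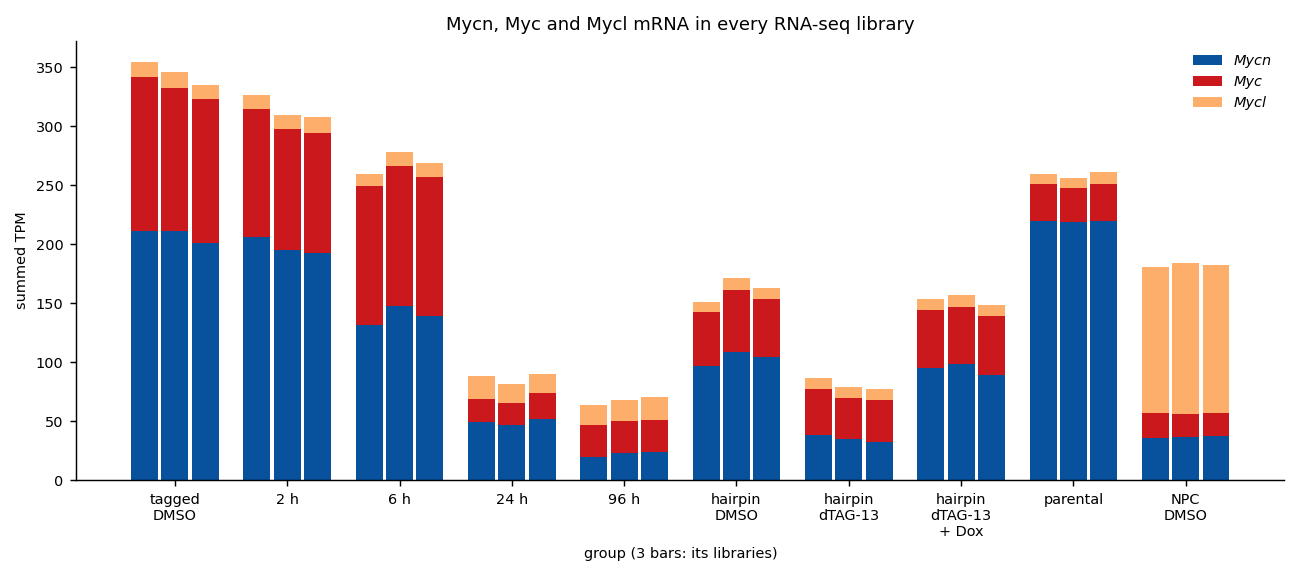
Summed TPM of Mycn, Myc and Mycl in each RNA-seq group as stacked bars from 0 (y axis in TPM), with 1 bar per library and 3 bars per group on the x axis. The group means of the sum are 345 TPM in DMSO and 67.7 TPM at 96 h, and Mycl makes up 68.9% of it in NPCs.

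Max (chr12:76937269-76962201, minus strand), the shared partner, changed little in the deposited scaling. It read 92.5, 92.9 and 88.5 TPM in DMSO, 83.5, 84.6 and 80.9 TPM at 24 h, and 88.1, 91.3 and 87.1 TPM at 96 h. The 24 h libraries lay below DMSO without overlap, and those of 96 h overlapped it. The 24 h difference was 1.10-fold (-0.14 ± 0.054, adjusted p = 0.0383) and lost its call when any of 5 libraries was left out, with adjusted p up to 0.113. With each library centred on its median gene it was larger, -0.43 (adjusted p = 1.53e-05). The 96 h difference was -0.04 with a 95% interval of -0.16 to 0.08 (log2). That value is of the deposited scaling: with centred libraries Max stood at -0.32 at 96 h (adjusted p = 0.00016), and on the FPKM scale at -0.16 (adjusted p = 0.0109). The MYC genes together went from 3.78 ± 0.057 times the level of Max in DMSO to 1.046 ± 0.079 at 24 h and 0.762 ± 0.043 at 96 h.

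Mxd4 (chr5:34173883-34187720, minus strand), a MAX partner linked to differentiation and to cell cycle exit, rose most of the 10. Its values were 2.80, 2.91 and 2.73 TPM in DMSO, 6.58, 5.74 and 6.33 TPM at 24 h and 47.2, 48.2 and 47 TPM at 96 h. All groups lay above DMSO. It was 1.22-fold higher at 2 h (adjusted p = 0.0111), 0.15 ± 0.067 (log2) at 6 h without passing (adjusted p = 0.0964), 2.03-fold higher at 24 h (1.02 ± 0.067, adjusted p = 1.35e-08) and 14.5-fold higher at 96 h (3.86 ± 0.067, adjusted p = 3.2e-15). An antisense gene, Gm42846, overlaps 1001 bases of Mxd4, and the strand setting of the RNA-seq counting is not given in the sources used here, so reads of the pair cannot be told apart. The same holds for Mxi1 with AC133451.2 (5146 bases) and Gm10197 (201 bases) on its other strand, while Gm44292 in Mxd1 (2364 bases) and Gm47218 in Max (1319 bases) lie on the same strand as the member.

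Mxd1 (chr6:86647042-86669161, minus strand), the founding MXD gene, stayed low. It was at 1.78 to 2.03 TPM in DMSO, 2.27 to 2.81 TPM from 2 h to 24 h and 4.02 to 4.61 TPM at 96 h. No treated library fell within the DMSO range. The change was 1.24-fold at 2 h (adjusted p = 0.0302), 1.31-fold at 6 h (adjusted p = 0.00415), 1.24-fold at 24 h (adjusted p = 0.00631) and 2.00-fold at 96 h (adjusted p = 6.52e-08). The 24 h call was lost with centred libraries (0.02, adjusted p = 0.866).

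Mxd3 (chr13:55325168-55329823, minus strand), an MXD gene known from proliferating cells, was at 9.52, 9.56 and 11.1 TPM in DMSO. It read 13.5, 13.4 and 12.8 TPM at 2 h, 9.53, 9.94 and 10.3 TPM at 24 h, and 3.71, 4.85 and 5.54 TPM at 96 h. It was higher than all DMSO libraries at 2 h (1.30-fold, adjusted p = 0.0276) and overlapped DMSO at 6 h and 24 h. With centred libraries it was lower at 24 h (-0.31, adjusted p = 0.0181). At 96 h it was lower than all DMSO libraries (2.05-fold, adjusted p = 4.55e-07). The 2 h calls of Mxd1, Mxd3 and Mxi1 rested on the full set of libraries: at least 4 of the 6 removals of 1 library ended each, with adjusted p up to 0.114 for Mxd1, 0.100 for Mxd3 and 0.0909 for Mxi1. Mxd3 shares 105 bases with Prelid1 on the other strand.

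Mxi1 (chr19:53310506-53375810, plus strand), also called Mxd2, changed direction. Its levels were 9.63, 9.81 and 9.06 TPM in DMSO, 8.12, 7.46 and 7.74 TPM at 2 h, 17, 15.8 and 14.4 TPM at 24 h and 4.72, 4.41 and 4.47 TPM at 96 h. The 2 h group lay below DMSO, the 24 h group above and the 96 h group below again, none overlapping it. Mxi1 was 1.21-fold lower at 2 h (adjusted p = 0.0249), 1.62-fold higher at 24 h (0.69 ± 0.075, adjusted p = 1.61e-06) and 1.99-fold lower at 96 h (-0.99 ± 0.075, adjusted p = 1.38e-08). From 24 h to 96 h it fell 3.22-fold (adjusted p = 4.65e-11).

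Mnt (chr11:74830920-74845725, plus strand), the broadly expressed MAX partner that opposes MYC in cycling cells, moved early. It was at 31.9, 32.7 and 34.5 TPM in DMSO, 43.2, 45.3 and 43 TPM at 2 h, 23.9, 22.5 and 24.4 TPM at 6 h, 26.9, 28.9 and 28 TPM at 24 h and 22.9, 23.3 and 24.1 TPM at 96 h. Its 2 h libraries were above all DMSO libraries and all later ones below. Mnt was 1.32-fold higher at 2 h (0.40 ± 0.045, adjusted p = 7.59e-05) and 1.39-fold lower at 6 h (-0.48 ± 0.045, adjusted p = 9.44e-06). It was 1.18-fold lower at 24 h (adjusted p = 0.000317) and 1.40-fold lower at 96 h (adjusted p = 1.29e-07).

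Mga (chr2:119897228-119969581, plus strand), the largest protein of the network, held its level for a day and then fell. It read 59, 57.6 and 57.8 TPM in DMSO, 58.4, 66.8 and 62.8 TPM at 24 h and 27.1, 27.2 and 25.7 TPM at 96 h. The 24 h libraries overlapped DMSO and the 96 h libraries lay far below. The 6 h rise was 1.11-fold (0.15 ± 0.054, adjusted p = 0.0399) and lost its call when any 1 of the 6 libraries was left out, with adjusted p of 0.0569 to 0.104. At 24 h the difference was 0.11 ± 0.054 (adjusted p = 0.0966), and it changed sign with centring, as given at the close. Mga was 2.16-fold lower at 96 h (-1.11 ± 0.054, adjusted p = 8.7e-11).

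**Figure D3:**
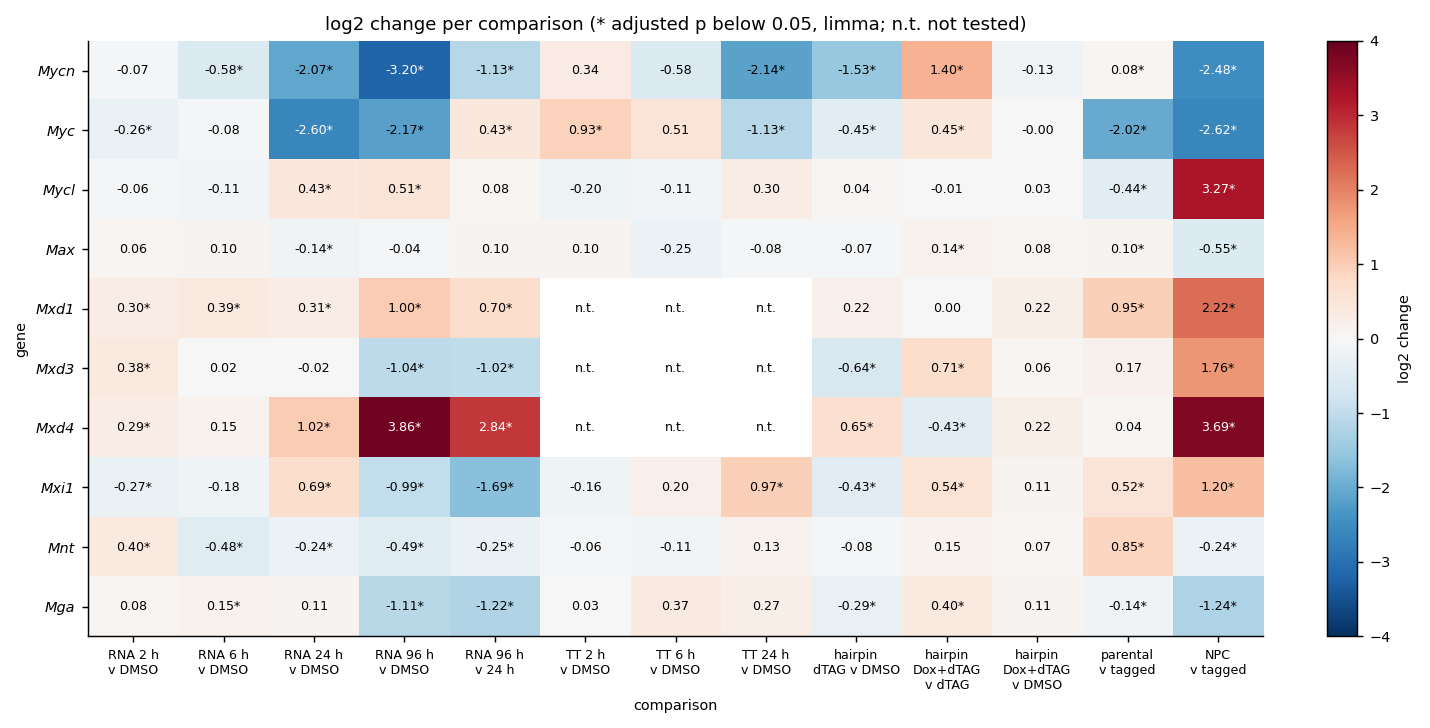
Log2 changes of the 10 genes (y axis) in each comparison (x axis) as a grid coloured from -4 to 4, with an asterisk where the adjusted p is below 0.05 and n.t. where a gene was not tested. Mycn reads -2.07 at 24 h and -3.20 at 96 h, Myc -2.60 and -2.17, and Mxd4 3.86 at 96 h.

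Nascent RNA asks whether synthesis moved with the messages. Of the 10 genes, 7 passed the filter of 0.5 FPKM in 3 libraries, and Mxd1, Mxd3 and Mxd4 did not. At 2 h 1 of the 7 passed the test, upward, when 3.55% of 13357 genes did (1.58% up, 1.97% down). At 6 h none of the 7 passed in limma, with 4 at an unadjusted p below 0.05, against 9.09% of genes (7.82% up, 1.27% down). At 24 h 3 passed, 1 up and 2 down, against 37.9% (32.3% up, 5.59% down). Whole reads could be recovered from the deposited FPKM for every gene, and limma voom on those reads, which tested all 10 genes, called 1 at 2 h, 3 at 6 h and 7 at 24 h, against 10.7%, 14.6% and 47.1% of 19039 genes.

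Nascent Mycn stood at 29, 23.4 and 18.4 FPKM in DMSO (1220 to 1716 reads), and at 30.3, 28.5 and 29.4 FPKM at 2 h. It then stood at 12.9, 16.9 and 16.6 FPKM at 6 h and 5.15, 4.30 and 5.17 FPKM at 24 h (195 to 727 reads). The DMSO libraries were spread, the 2 h group overlapped them, and the 6 h and 24 h groups lay below. The 6 h difference of -0.58 ± 0.168 missed the threshold (adjusted p = 0.0602), passed without replicate 3 of DMSO, the lowest of its group (-0.74, adjusted p = 0.028), and passed in voom (-0.61, adjusted p = 0.00476). At 24 h nascent Mycn was 4.42-fold lower (-2.14 ± 0.168, adjusted p = 3.48e-05), beside 4.19-fold for its message.

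Nascent Myc and its message differed in their early values. Nascent Myc was at 4.07, 3.23 and 3.36 FPKM in DMSO, 6.92, 6.13 and 8.85 FPKM at 2 h, 4.38, 5.09 and 6.47 FPKM at 6 h and 1.20, 1.10 and 1.83 FPKM at 24 h, from 59 to 622 reads per library. The 2 h and 6 h libraries lay above DMSO and the 24 h libraries below. It was 1.91-fold higher at 2 h (0.93 ± 0.189, adjusted p = 0.0313), a call that was lost when any of the 6 libraries was left out (adjusted p of 0.0521 to 0.111) and that voom kept (adjusted p = 0.000549). The message was 1.19-fold lower at that time. At 24 h nascent Myc was 2.18-fold lower (-1.13 ± 0.189, adjusted p = 0.00134), and its message 6.06-fold. No test of the difference between nascent RNA and message was made, since the library types were scaled apart.

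**Figure D4:**
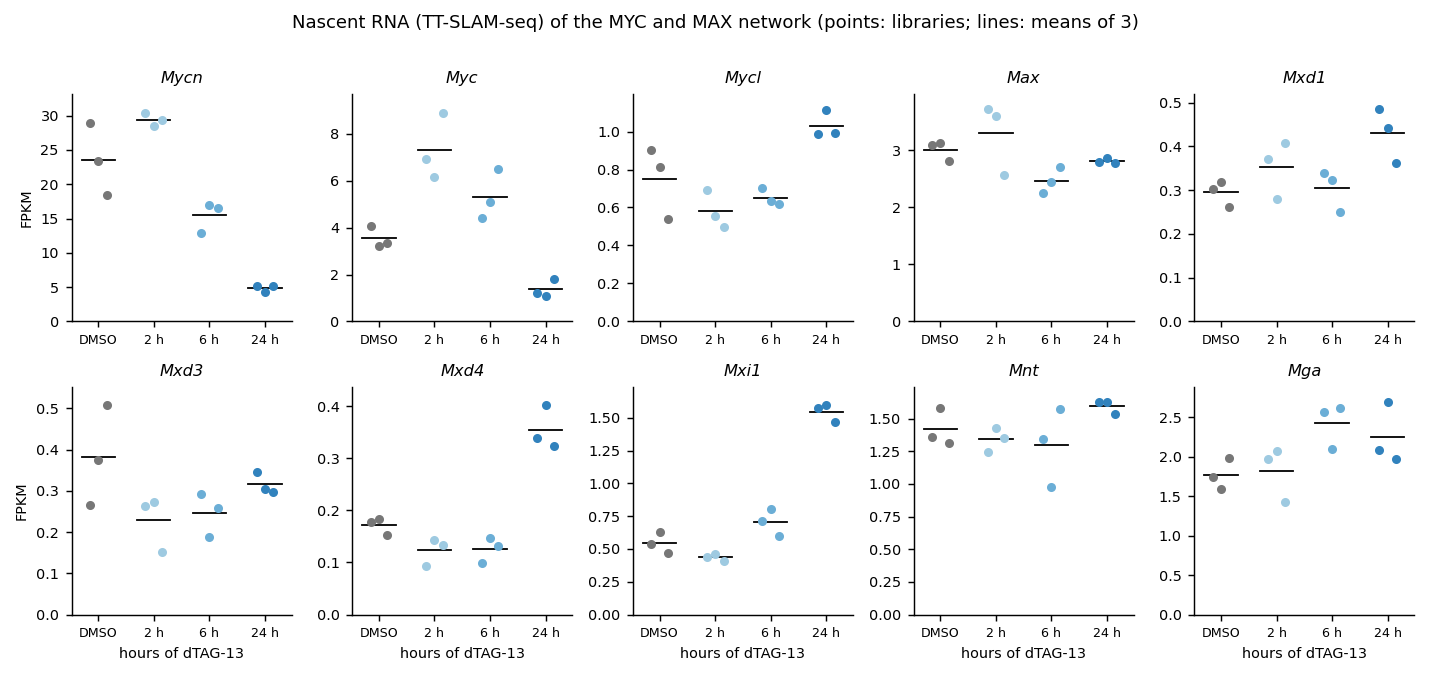
Nascent RNA of the 10 genes in FPKM (y axis, own linear scale from 0 per gene) against the time of dTAG-13 treatment, DMSO first (x axis), with points for libraries and lines for means of 3. Myc is highest at 2 h (6.13 to 8.85 FPKM), and Mxi1 reaches 1.46 to 1.596 FPKM at 24 h from 0.471 to 0.632 FPKM in DMSO.

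Among the antagonists nascent Mxi1 rose. It was at 0.542, 0.632 and 0.471 FPKM in DMSO and at 1.58, 1.596 and 1.46 FPKM at 24 h, from 258 to 520 and from 620 to 2500 reads. The groups did not overlap, and the rise was 1.95-fold on the scale with 0.5 added (0.97 ± 0.078, adjusted p = 3.96e-05) and 2.88-fold in voom, which adds less to low values. Nascent Mxd4, under the filter, was at 0.178, 0.184 and 0.152 FPKM in DMSO (18 to 32 reads) and at 0.340, 0.401 and 0.323 FPKM at 24 h (29 to 114 reads). Voom put its rise at 2.12-fold (adjusted p = 0.0011) and that of Mxd1 at 1.53-fold (adjusted p = 0.0131). Nascent Mxd3, at 9 to 39 reads per library, gave no call in voom at any time (adjusted p at least 0.144). Nascent Mycl (0.30 at 24 h, adjusted p = 0.055), Max (-0.08 ± 0.119), Mnt (0.13 ± 0.112) and Mga (0.27 ± 0.139) did not pass in limma on FPKM, and voom called Mycl and Mga higher at 24 h (adjusted p = 0.0361 and 0.0404). A single noncoding gene, Gm26917, took 29.3% to 35% of reads in DMSO and 15.3% to 18.5% at 24 h, and with FPKM rescaled without it Mycn at 6 h (-0.74, adjusted p = 0.0271), Max at 6 h (-0.39, adjusted p = 0.0346) and Max at 24 h (-0.34, adjusted p = 0.0198) passed as well.

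The shREPEATS line asked whether silencing the retroviral RNAs alters the response. The series has no group with Dox but without dTAG-13, and none with Dox but without the hairpins. Retroviral RNA was not quantified in this report, so an effect of Dox itself cannot be told apart from silencing. Trim28 RNA stood at 252 to 283 TPM in DMSO, 203 to 213 TPM with dTAG-13 and 284 to 285 TPM with Dox added. With dTAG-13 for 24 h, 6 of the 10 genes passed against DMSO, 1 up and 5 down, when 54% of 16166 genes did (41.2% up, 12.8% down). With Dox added, 7 passed against dTAG-13 alone, 6 up and 1 down, when 46.8% did (17.5% up, 29.3% down). Both comparisons use the same 3 dTAG-13 libraries, so their opposite signs are not independent. Between dTAG-13 with Dox and DMSO, limma called none of the 10, with 2 (Mxd1 and Mxd4) at an unadjusted p below 0.05, and called 10 genes in all, 0.0619% of those tested (0.0495% up, 0.0124% down).

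Mycn was at 96.8, 108 and 104 TPM in DMSO, 38.8, 34.9 and 32.9 TPM with dTAG-13 and 94.9, 98.9 and 89.5 TPM with Dox added. The dTAG-13 libraries lay below both other groups, which overlapped each other. It was 2.88-fold lower with dTAG-13 (-1.53 ± 0.065, adjusted p = 1.39e-08) and 2.64-fold higher with Dox than without (1.40 ± 0.065, adjusted p = 2.96e-08). Against DMSO the group with Dox differed by -0.13 (95% interval -0.27 to 0.02, adjusted p = 0.305).

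Myc moved less. It read 46, 53.1 and 49.4 TPM in DMSO, 38.4, 34.6 and 35 TPM with dTAG-13 and 49.7, 48.3 and 50.1 TPM with Dox. The dTAG-13 group was again the lowest without overlap. The change was 1.37-fold downward with dTAG-13 (-0.45 ± 0.059, adjusted p = 5.62e-05) and 1.37-fold upward with Dox (0.45 ± 0.059, adjusted p = 7.66e-05), and Dox against DMSO had a 95% interval of -0.13 to 0.13.

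Among the antagonists Mxd4 was at 8.29, 8.95 and 8.68 TPM in DMSO, 12.9, 13.7 and 15 TPM with dTAG-13 and 9.79, 9.64 and 11.1 TPM with Dox. It was the member that rose with dTAG-13 (1.57-fold, adjusted p = 2.07e-05) and fell with Dox (1.35-fold, adjusted p = 0.000596). Mxd3 (1.56-fold, adjusted p = 0.000155), Mxi1 (1.34-fold, adjusted p = 0.000369) and Mga (1.22-fold, adjusted p = 0.00336) fell with dTAG-13. With Dox they were 1.63-fold, 1.45-fold and 1.32-fold higher than without it (adjusted p = 0.000102, 9.06e-05 and 0.0005). With centred libraries Max and Mnt passed with dTAG-13 too (-0.23 and -0.24). Max rose 1.10-fold with Dox (adjusted p = 0.033), a call lost when any of 5 libraries was left out, with adjusted p up to 0.150. Mycl (8.01 to 10.1 TPM over all 9 libraries), Mnt (12.1 to 14.7 TPM) and Mxd1 (2.79 to 3.82 TPM) passed neither comparison.

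**Figure D5:**
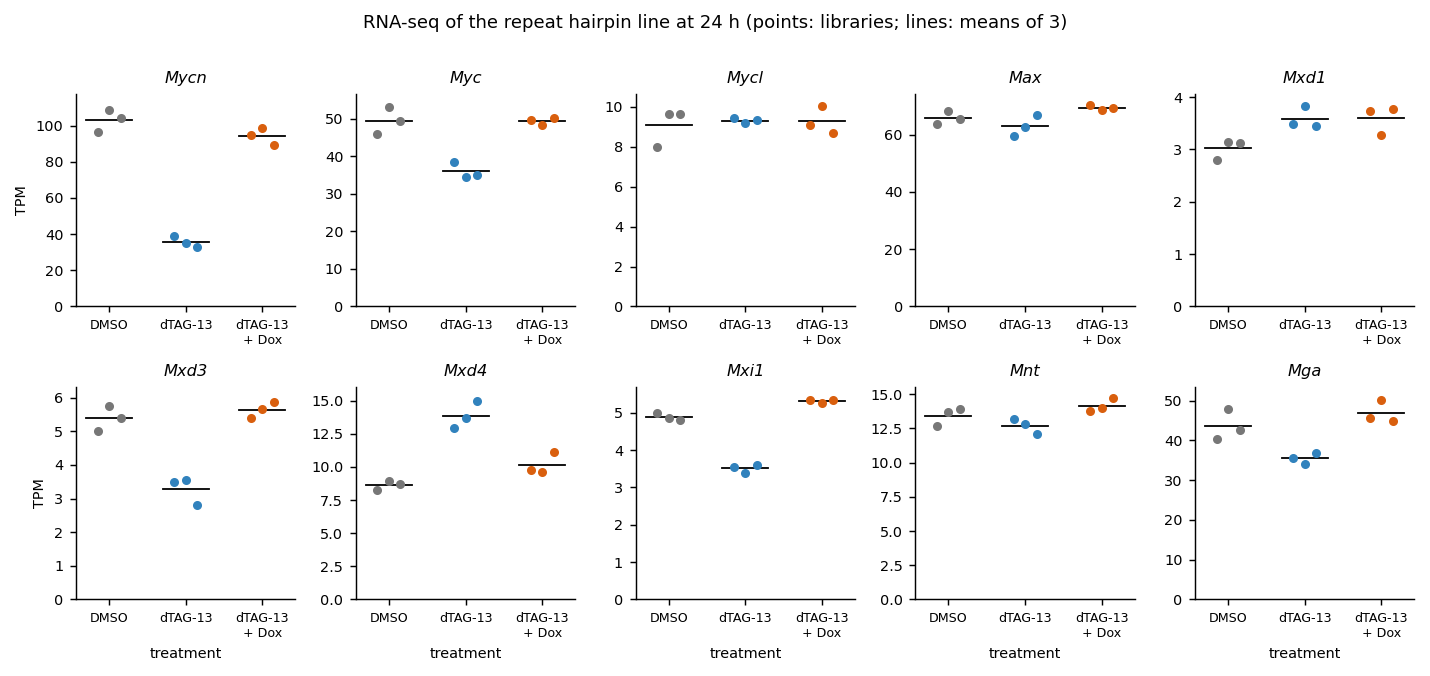
TPM of the 10 genes in the shREPEATS line (y axis, own linear scale from 0 per gene) in DMSO, with dTAG-13 and with dTAG-13 and Dox (x axis), with points for libraries and lines for means of 3. Mycn is at 32.9 to 38.8 TPM with dTAG-13 and at 89.5 to 98.9 TPM with Dox added.

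Summed mESC markers in this line were at 807 to 912 TPM in DMSO, 410.1 to 417 TPM with dTAG-13 and 869 to 886 TPM with Dox (7 of 7 at 1 TPM or more in each), so they moved with Mycn, and their part was not tested. Feeder fibroblast markers were at 103 to 112 TPM, 98.7 to 110.04 TPM and 113 to 119 TPM (5 of 7 in each), above the 20.8 to 21.5 TPM of the tagged line in DMSO. Endoderm markers were at 16.6 to 19.3 TPM in DMSO (3 of 6 at 1 TPM or more), 21.9 to 26.01 TPM with dTAG-13 (4 of 6) and 16.1 to 19.4 TPM with Dox (4 of 6), and their part was not tested either. Within that sum Sox17 rose with dTAG-13 (0.354 to 0.795 TPM in DMSO, 3.36 to 4.62 TPM with dTAG-13). Gata6 fell (2.67 to 3.03 TPM in DMSO, 1.98 to 2.45 TPM with dTAG-13).

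The 24 h response was set against that of the time course as an interaction over 17653 genes. It passed for 7 of the 10 genes, 2 up and 5 down, against 51.4% of genes (26.2% up, 25.2% down). Myc differed most: 1.37-fold lower in the shREPEATS line and 6.06-fold lower in the time course, an interaction of 2.15 ± 0.100 (adjusted p = 2.03e-07). For Mxi1 the signs were opposite, with 1.34-fold lower against 1.62-fold higher (-1.12 ± 0.102, adjusted p = 4.76e-06). Mycn fell less in the shREPEATS line (0.54 ± 0.090, adjusted p = 0.000344). The experiments differ in cell line, RNA selection and library kit, and these cannot be told apart.

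The parental line shows how the tagged line stands in DMSO. Of the 10 genes, 8 differed, 5 higher and 3 lower in the parental line, when 66% of 17458 genes did (25% higher, 41% lower). Myc was at 31, 28.8 and 31.2 TPM in parental cells against 121 to 130.3 TPM in the tagged line, 4.06-fold lower (-2.02 ± 0.050, adjusted p = 2.85e-09). Mycn was at 219.7, 219 and 220.1 TPM against 201 to 211 TPM, a difference of 1.06-fold (adjusted p = 0.0388) that 4 of the 6 removals of 1 library ended (adjusted p up to 0.109). Mnt was at 59.3, 59.1 and 61.1 TPM, 1.80-fold higher (adjusted p = 1.15e-07), Mxd1 1.93-fold higher (adjusted p = 1.74e-05) and Mxi1 1.43-fold higher (adjusted p = 3.9e-06). Trim28 was at 1387 to 1418 TPM in parental cells. Summed mESC markers were at 3362 to 3384 TPM there, against 1786 to 1855 TPM in the tagged line (7 of 7 at 1 TPM or more in both, all 7 higher past the test). NPC markers were at 29.7 to 32.6 TPM against 66.1 to 67.2 TPM (4 of 6 in both) and feeder markers at 95.6 to 98.3 TPM (6 of 7). The lower NPC sum rested mostly on Nes, with a median of 9.7 TPM in parental cells against 52.7 TPM. Olig2 went the other way (median 11.4 against 2.93 TPM), as did Hes5 below 1 TPM. Sox1 (median 4.49 against 5.31 TPM) and Pax6 (4.64 against 5.10 TPM) were slightly lower. The part of these shifts in the differences was not tested, and tag, clone, handling and feeders cannot be told apart.

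In NPCs the family had another composition. All 10 genes differed from the tagged line in DMSO, 5 up and 5 down, when 89% of genes did (49.5% up, 39.5% down). Mycl, at 124, 128 and 125 TPM, was 9.64-fold higher (3.27 ± 0.056, adjusted p = 1.76e-11) and made up 68.9% ± 0.329 of the MYC sum of 183 ± 1.63 TPM. Mycn was at 35.6, 36.9 and 37.9 TPM (5.58-fold lower, adjusted p = 1.98e-12) and Myc at 21.1, 19.7 and 18.9 TPM (6.13-fold lower, adjusted p = 3.07e-11). The MXD genes were higher throughout: Mxd4 12.9-fold, Mxd1 4.66-fold, Mxd3 3.39-fold and Mxi1 2.30-fold. Max was 1.46-fold, Mnt 1.18-fold and Mga 2.36-fold lower. NPC markers summed to 3335 to 3403 TPM in these libraries (6 of 6 at 1 TPM or more). Summed mESC markers were at 420 to 437 TPM (3 of 7 at 1 TPM or more). Within the mESC sum Sox2 was higher, at 413 to 430 TPM against 195 to 212 TPM in the tagged line. The other mESC markers were lower than in the tagged line, with Pou5f1 and Zfp42 at 0.

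By level, Mycn came first in the tagged line in DMSO (208 ± 6.05 TPM, SD, n = 3), followed by Myc (125 ± 4.84), Max (91.3 ± 2.47), Mga (58.1 ± 0.736) and Mnt (33 ± 1.32), with no overlap between neighbours. Mycl (12.6 ± 0.908) came next, and Mxd3 (10.1 ± 0.924) and Mxi1 (9.50 ± 0.396) overlapped each other in TPM. Mxd4 (2.81 ± 0.092) and Mxd1 (1.91 ± 0.128) were lowest. At 96 h the order was Max (88.9 ± 2.20), Mxd4 (47.5 ± 0.647), Myc (27.2 ± 0.475), Mga (26.6 ± 0.826), Mnt (23.4 ± 0.615) and Mycn (22.3 ± 1.93), where Myc and Mga, and Mnt and Mycn, overlapped. Mycl (18.2 ± 1.15) followed, and Mxd3 (4.70 ± 0.926), Mxi1 (4.53 ± 0.166) and Mxd1 (4.33 ± 0.295) overlapped one another.

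ChIP-seq peaks were read within 1000 bases of the annotated starts, from equal numbers of top peaks per library (30259 for H3K27Ac, 7689 for polymerase II, 14551 for MED23, 11474 for H3K9me3). Peak height is the caller's fold enrichment, called per library. Libraries with dTAG-13 had fewer peaks for MED23 (15335 and 14551 against 63045 and 58925) and polymerase II (8182 and 7689 against 19853 and 19194), and heights carry no spike-in scaling. For H3K27Ac, replicates 1 and 3 of dTAG-13 had 30259 and 45662 peaks. Replicate 2 had 117348, and the DMSO libraries 88050 to 117475. With 2 against 2 libraries the smallest exact permutation p is 0.333, and with 3 against 3 it is 0.1, so no peak difference could pass.

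The start of Mycn had MED23 peaks of 30-fold and 28.8-fold in DMSO and none in either dTAG-13 library. Its H3K27Ac was 5.98, 10 and 7.41-fold in DMSO. With dTAG-13 it was absent in replicate 1, 7.80-fold in replicate 2 and 2.76-fold in replicate 3, and replicates 1 and 3 had fewer peaks. No polymerase II peak of the top set lay there in either treatment. Among all deposited peaks the DMSO libraries had polymerase II there at 4.81 and 4.43-fold, and neither dTAG-13 library did. Mycl had MED23 of 16.4 and 20.4-fold and polymerase II of 8.60 and 7.43-fold in DMSO, with neither in dTAG-13. Within 2000 bases the dTAG-13 libraries did hold MED23 peaks at both, of 4.24-fold (mean) at Mycn and 3.82-fold at Mycl, so the losses rest on the window. Of the 5482 tested genes with a MED23 peak at the start in every DMSO library, 37.5% had none in either dTAG-13 library.

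Myc kept its MED23 and polymerase II peaks at lower height, with MED23 of 9.79 and 12.6-fold in DMSO and 4.20 and 2.82-fold in dTAG-13, and polymerase II of 6.79 and 6.35-fold and of 4.11 and 3.25-fold. Its H3K27Ac was 4.08, 3.76 and 3.84-fold in DMSO. With dTAG-13 it was 3.87-fold in replicate 2 and absent in replicates 1 and 3, those with fewer H3K27Ac peaks. Mnt had the highest MED23 of the 10, 38.6 and 40.2-fold in DMSO and 9.79 and 9.06-fold in dTAG-13, a ratio of 4.18 (exact permutation p = 0.333). Its polymerase II went from 16.6 and 14.6-fold to 8.59 and 7.83-fold, a ratio of 1.90. Mga (MED23 ratio 3.42, polymerase II ratio 2.37), Max (MED23 ratio 2.56) and Mxd3 (polymerase II ratio 3.16) also kept peaks in every library. Over all starts with peaks in every library the median ratio was 3.14 for MED23, with 5% of starts below 1.62 and 5% above 6.10, and 2.20 for polymerase II, and the ratios given here for members with peaks in every library lay between those bounds for MED23. The wider window of 2000 bases gave Mycn a MED23 ratio of 6.93, for which no background over all starts was computed. Polymerase II at Max (9.07 and 9.83-fold) and Mxd1 (8.09 and 7.91-fold) was in DMSO alone. The same held for 23.0% of the 5987 starts with a polymerase II peak in every DMSO library. Mxi1 had no top peak of any mark at the start annotated for the whole gene. Among all deposited peaks the DMSO libraries had MED23 there at 6.18 and 7.14-fold, and neither dTAG-13 library did. Within 10 kb of that start, top MED23 peaks reached 16.1 and 15.8-fold in DMSO, with none in dTAG-13. H3K27Ac within 10 kb was 3.76-fold in replicate 3 of DMSO and 7.16-fold in replicate 2 of dTAG-13, and absent otherwise. No H3K9me3 peak of the top set lay within 10 kb of the annotated start of any of the 10 genes, and gene bodies beyond that were not searched. Over all tested genes 2.04% had one within 1000 bases of the start in at least 1 library.

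Other genes of the pathway were counted from lists. The counts at 96 h stand against 42.9% of all genes up and 37.4% down, 80.3% in all, with a median log2 change of 0.05, and a share called near 80.3% is no result about a list. Of 30 known targets raised by MYC, 29 fell and none rose at 96 h, with a median log2 change of -1.27 against 0.05 for all genes. At 24 h 29 fell and 1 rose (median -0.68 against 0.13), when 25% of all genes fell and 42.9% rose. Dkc1, a telomerase and RNA modification protein, went from 202 to 207 TPM in DMSO to 43 to 47.8 TPM at 96 h (4.53-fold, adjusted p = 1.78e-14). Srm, the spermidine synthase, went from 328 to 344 TPM to 86.2 to 93.9 TPM (3.67-fold, adjusted p = 1.62e-13). In nascent RNA at 24 h 13 of the 30 fell and none rose (median -0.33 against 0.21), when 5.59% of all genes fell and 32.3% rose. Among those that fell were Srm (2.23-fold) and Polr1b, a polymerase I subunit (1.61-fold). In the shREPEATS line 19 fell and 1 rose with dTAG-13, 24 rose and none fell with Dox, and none passed between Dox and DMSO. Over all genes 12.8% fell and 41.2% rose with dTAG-13 (median 0.14, against -0.19 for the targets), 17.5% rose and 29.3% fell with Dox (median -0.04 against 0.24), and 0.0619% passed between Dox and DMSO. In NPCs 29 fell and 1 rose, when 39.5% of all genes fell and 49.5% rose. The mESC markers moved with these counts, as given above, and their part was not tested.

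Of 6 targets known to be lowered by MYC, 5 rose and 1 fell at 96 h (median 1.56 against 0.05 for all genes). The cell cycle inhibitors Cdkn2b, from 8.05 to 9.21 TPM to 152 to 167 TPM (17.4-fold, adjusted p = 2.88e-15), and Cdkn1a, from 67.6 to 69.8 TPM to 291 to 292 TPM (4.22-fold), rose most. Gadd45a, a growth arrest gene, fell 2.32-fold. In nascent RNA at 24 h 2 of the 5 tested rose, Cdkn1a (1.95-fold) and Cdkn1b (1.84-fold), and Gadd45a fell (1.86-fold). Over all genes 32.3% rose and 5.59% fell, so the share that rose is no result about this list.

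The complex of MGA and MAX (PRC1.6) had 4 of 13 genes up and 8 down at 96 h (median -0.40 against 0.05 for all genes). This share called, and those of the smaller lists that follow, were not tested against the 80.3% of all genes that passed, and the counts are given as a description. Its subunits Pcgf6, from 76.4 to 77 TPM to 25.7 to 28 TPM (2.83-fold), and L3mbtl2 (2.18-fold) fell most, and Yaf2 (2.58-fold) and E2f6 (1.48-fold) rose most. Of 11 germline genes tested of the 12 listed as held down by this complex, 1 rose and 7 fell, with Mael 1.83-fold higher and Hormad1, from 16.9 to 20.7 TPM to 0.247 to 0.740 TPM (20.8-fold on the scale with 0.5 added), and Sycp3 (3.73-fold) lower. Of 8 MYC cofactors 1 rose and 5 fell, with Trrap 1.37-fold higher and the helicases Ruvbl2 (2.28-fold) and Ruvbl1 (1.96-fold) lower. Of 3 MXD corepressor genes Sin3b rose 1.53-fold, and Sin3a (1.78-fold) and Ncor1 (1.37-fold) fell. Of 6 genes of MYC turnover 1 rose and 4 fell, with the ligase subunit Fbxw7 1.58-fold higher and the deubiquitinase Usp28 3.29-fold and the ligase Huwe1 1.40-fold lower. Of the partners in the wider network, Mlxip rose 1.19-fold and Mlxipl fell 3.65-fold at 96 h, and Mlx did not pass (0.07, adjusted p = 0.268).

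Over the 15 time course libraries the genes whose log2(TPM + 0.5) followed Mycn most closely, of 11926 ranked, were Srm (Pearson's r = 0.999), Fiz1 (0.997), Timm8a1 (0.996), Mybbp1a (0.996) and Heatr1 (0.996). This is a description over libraries that share their treatment times. The nearest tested neighbours of Mycn are Rpl36-ps3, at 23.8 kb, which did not pass at 24 h (-0.20, adjusted p = 0.367), and Ddx1, at 275 kb, which fell 1.27-fold at 24 h (adjusted p = 1.68e-06). Those of Myc are Pvt1, a long noncoding RNA gene at 47.6 kb, 1.33-fold lower at 24 h (adjusted p = 0.00313), and Fam84b, at 1132 kb, 1.69-fold lower at 24 h and 1.85-fold higher at 96 h. Those of Mycl are Trit1, at 14.1 kb, which did not pass at 24 h (0.13, adjusted p = 0.113), and Mfsd2a, at 34.5 kb, which fell 1.88-fold (adjusted p = 0.00101).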

How the data were processed

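The authors trimmed RNA-seq reads with cutadapt 2.4, aligned them to mm10 with STAR 2.7.5a and made the deposited TPM values per gene with StringTie 2.0.6. The deposited FPKM values of TT-SLAM-seq came from read counts per gene of GENCODE VM19 after alignment with SLAM-DUNK, scaled by the authors. The authors called ChIP-seq peaks per library with MACS2, and the deposited peak lists give a fold enrichment and a −log10 q for each peak. The deposited coverage signal tracks, which the authors made with deepTools 3.4.3, were not used. Columns were matched to samples by the labels.

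Repeated gene IDs (6 to 13 per RNA library) were summed. Genes with at least 1 TPM, or 0.5 FPKM, in 3 libraries were tested on log2(value + 0.5) with limma 3.58.1 in R 4.3.3, with Benjamini-Hochberg adjustment over all genes tested and a threshold of 0.05. The 5 time groups, the 4 nascent groups, the 3 shREPEATS groups, and the tagged DMSO, parental and NPC groups were each fitted together, and the 24 h responses of both tagged lines were compared as an interaction. Whole reads were recovered from 100% of FPKM values (tolerance 0.01) and tested with limma voom. Peaks were compared by exact permutation tests. The fits were tested on simulated data. The members and lists were chosen with earlier results of these data known. Every member is named, and of each list the genes with the largest rise and fall past the threshold, at most 2 in each direction. Python 3.11.15 was used elsewhere.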

Additional observations from a re-analysis of the deposited data

Results flagged for a closer look

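The 24 h response to dTAG-13 differed between the shREPEATS line and the time course in a test of the difference itself (limma, shREPEATS minus time course, log2) for 7 of the 10 genes. The difference was 2.15 for Myc (adjusted p = 2.03e-07) and 0.54 for Mycn (adjusted p = 0.000344), whose falls were smaller in the shREPEATS line. It was -1.12 for Mxi1 (adjusted p = 4.76e-06), -0.63 for Mxd3 (adjusted p = 0.00206), -0.40 for Mycl (adjusted p = 0.0217), -0.39 for Mga (adjusted p = 0.00325) and -0.37 for Mxd4 (adjusted p = 0.0123). The Mycl difference was lost without replicate 3 of DMSO in the time course or without replicate 2 or 3 of DMSO in the shREPEATS line, with adjusted p up to 0.0529, with no filter on low values (adjusted p = 0.0517) and with median-centred libraries (-0.28, adjusted p = 0.0664). The lines, kits and RNA selection differ between the experiments and cannot be told apart.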

How the results depend on the processing

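Of 1820 recomputed member results, 1726 kept their call or its absence (35 of them, uncalled in either setting, with a changed sign), 58 lost a call, 34 gained one and 2 reversed. The reversals came with libraries centred on their median gene: Mga at 24 h went to -0.18 (adjusted p = 0.005) and Mga in the parental line to 0.0504 (adjusted p = 0.148). Centring lowered the median of all genes from 0.13 to -0.16 at 24 h and from 0.05 to -0.23 at 96 h. Leaving out 1 library gave 3 to 6 members at 2 h in RNA-seq (6 with all), with 3 without replicate 1 or 2 of DMSO or replicate 2 of 2 h. In nascent RNA at 2 h the count was 0 without a filter, 0 with only the groups compared, and 0 whichever library was left out (1 in the report). At 6 h it was 1 with centring, 2 rescaled without Gm26917, 3 with voom and 0 to 1 leaving out a library, the 1 without replicate 3 of DMSO, and at 24 h voom gave 7. With all deposited peaks 10 genes rather than 6 had MED23 in every DMSO library. The cause of these shifts was not tested.

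The main fits did not pair samples by replicate number, and no comparison had every same-number correlation above 0.1. In RNA-seq at 6 h and 96 h and in NPCs, each same-number correlation still exceeded the highest with another number. At 96 h these were 0.0639, 0.0311 and 0.0649, against -0.0213, 0.0204 and 0.0079. Whether the numbers pair the samples is therefore undecided. With a replicate block the members called were 4 rather than 3 in nascent RNA at 24 h (Mycl gained, adjusted p = 0.0316) and 7 rather than 8 in the parental line (Mycn lost, adjusted p = 0.0706). At 6 h in RNA-seq the count stayed at 4, with Mga lost (adjusted p = 0.0572) and Mxi1 gained (adjusted p = 0.0427), and the block changed no other call.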
